A study of Mus musculus with 24 samples.

Results

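C-type lectin receptors of myeloid cells were followed in bone marrow-derived macrophages through 10 genes, Mgl2, Clec10a, Mrc1, Cd209a, Cd209d, Clec7a, Clec4a2, Clec4n, Clec4d and Clec4e. They were chosen with earlier results of these data known and read by symbol, out of 18193 genes that the array annotation names by a single symbol. Of the 45101 probe sets of the array, 13 carried 1 of these symbols. All 13 passed the filter on low ratios, among 43349 probe sets tested. Each ratio is relative to its own probe set, so passing does not show that a gene was expressed. The macrophages were grown from the marrow of C57Bl/6 mice for 10 days with M-CSF at 20 ng/ml and hybridized to Affymetrix mouse expression arrays, 24 in all. Of the 6 mice, 3 were Pparg+/- LysCre (numbered 1 to 3) and 3 were Pparg fl/- LysCre (numbered 4 to 6), so cells of both genotypes carried a null Pparg allele and a Cre recombinase driven by the lysozyme locus, which is active in myeloid cells. The second allele was wild type in Pparg+/- cells and flanked by loxP sites in Pparg fl/- cells. Each mouse gave 4 cultures, without IL-4 (control) or with IL-4 at 20 ng/ml, and with vehicle (DMSO and ethanol) or with rosiglitazone (RSG), a synthetic PPARγ ligand, at 1 µM, which made 8 groups of 3 mice. A value is a ratio to the median of its own probe set over the arrays, so 1 marks that median, levels cannot be compared between genes, and the lowest possible value is 0.01.

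C-type lectin receptors are membrane proteins that bind sugars and other ligands through a shared fold, in many members with the help of calcium. In macrophages and dendritic cells some take up glycoproteins and microbes, some signal through immunoreceptor tyrosine motifs of their own or of the FcRγ adaptor, and some dampen signalling through an inhibitory motif. Mrc1 and the galactose-type lectins are textbook markers of macrophages alternatively activated by IL-4, whereas Dectin-1, Dectin-2 and Mincle are known for sensing fungi and mycobacteria.

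IL-4 moved most of these genes, in opposite directions. In Pparg+/- vehicle cells 8 of the 10 genes passed the threshold, an adjusted p below 0.05 in limma and a change of at least 1.5-fold, against 13.4% of all probe sets tested. Mgl2, Clec10a, Cd209d, Clec7a and Clec4a2 rose, against 7.91% of all probe sets, and Clec4n, Clec4d and Clec4e fell, against 5.47%. Without mouse 2 or mouse 3, and under the methods' t-test, an unpaired equal-variance test on the same values with Benjamini-Hochberg adjustment, 5 passed (Mgl2, Clec10a, Clec4a2, Clec4n and Clec4e). In the other 3 IL-4 comparisons 7 of 10 passed, the same 4 rises without Cd209d and the same 3 falls, against 14.8% (8.21% rises and 6.6% falls) in Pparg fl/- vehicle, 11.6% (6.57% and 5.07%) in Pparg+/- RSG and 13.3% (7.3% and 6.03%) in Pparg fl/- RSG cells. A rise in all 4 IL-4 comparisons was found for 3.93% of all probe sets and a fall in all 4 for 3.24%. Over all probe sets the median change with IL-4 lay between 0.10 and 0.12 on the log2 scale.

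**Figure D1:**
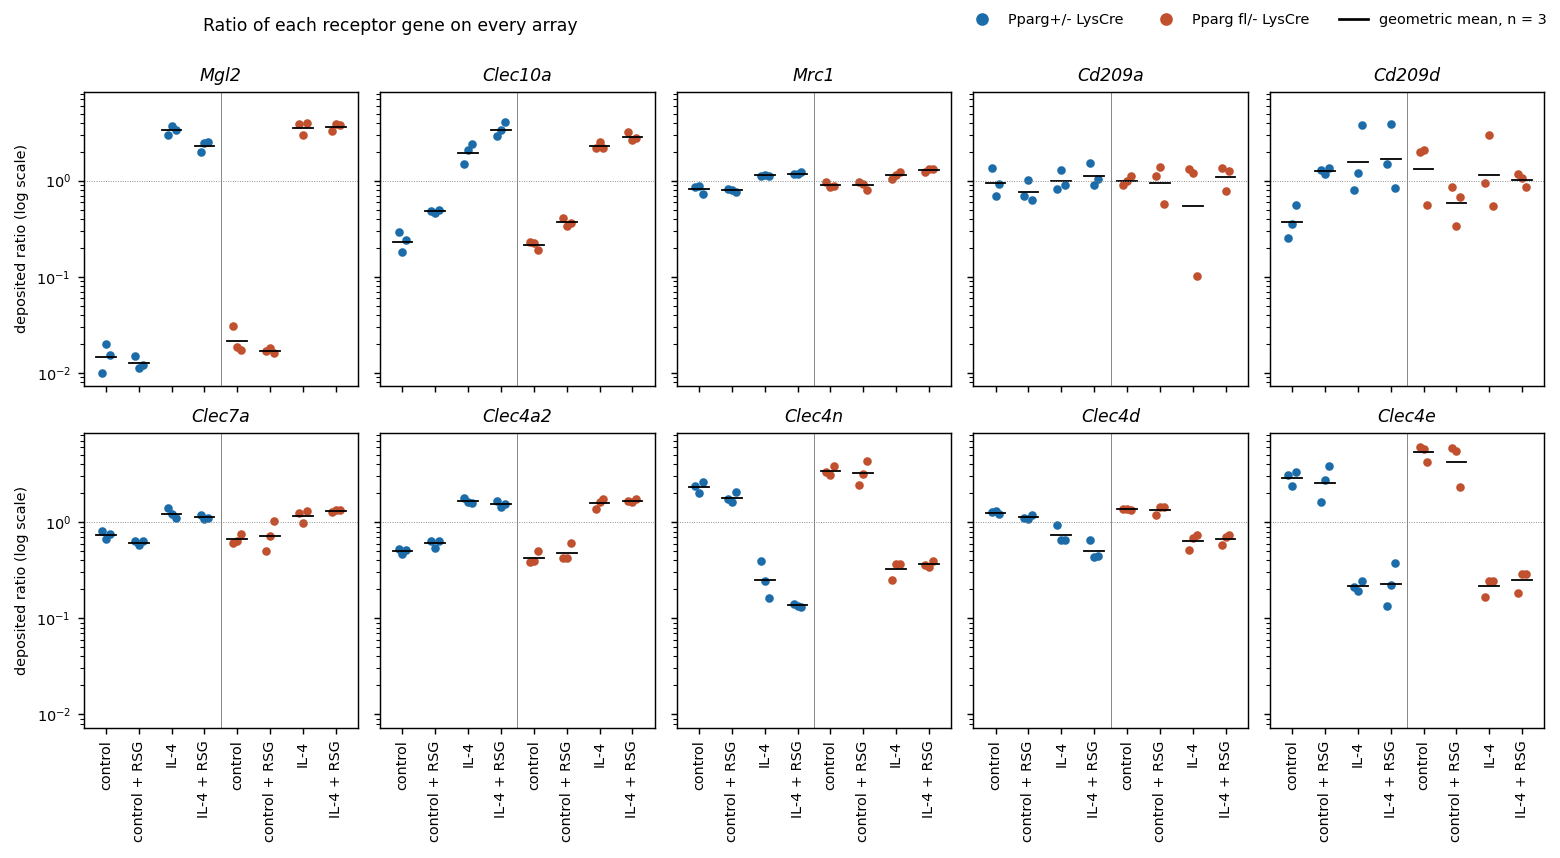
Deposited ratio (log axis) of the probe set standing for each of the 10 genes on every array, by culture, with Pparg+/- LysCre mice in blue and Pparg fl/- LysCre mice in orange; points are mice and bars are geometric means of 3. The IL-4 and control arrays of Mgl2, Clec10a, Clec4a2, Clec4n and Clec4e stand far apart in both genotypes, whereas those of Cd209a overlap.

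The macrophage galactose-type lectins Mgl2 and Clec10a, which bind terminal galactose and N-acetylgalactosamine, lie next to each other on chromosome 11 and showed the largest rises among the 10 genes in Pparg+/- vehicle cells. Mgl2 was at ratios of 0.01, 0.0200 and 0.0155 in the Pparg+/- vehicle controls of mice 1 to 3 and at 3.01, 3.69 and 3.37 with IL-4. Mice 4 to 6, Pparg fl/-, were at 0.0311, 0.0184 and 0.0174 without IL-4 and at 3.85, 2.96 and 3.98 with IL-4. All 12 control arrays were near the lowest value of the table and all 12 IL-4 arrays lay above the gene's median. The log2 change was 7.84 ± 0.29 (SE, n = 3 per group), or 229.5-fold, in vehicle cells of Pparg+/- mice and 7.38 ± 0.29, or 166-fold, in those of Pparg fl/- mice (adjusted p = 3.6e-12 and 1.1e-11). With RSG it was 7.51 and 7.74. The size of these changes depended on the lowest ratios, since with a floor of 0.05 they came to 5.53 to 6.19 on the log2 scale, all still called.

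The start of Mgl2 is shown because no other of the 10 genes rose as much. The sequence is the 250 bases before the RefSeq start, build GRCm38.p6, 5′ to 3′ along the gene, and capitals mark the GAGGAA core of PU.1, the lineage factor of macrophages:
Mgl2 promoter, chr11:70130107-70130356, plus strand: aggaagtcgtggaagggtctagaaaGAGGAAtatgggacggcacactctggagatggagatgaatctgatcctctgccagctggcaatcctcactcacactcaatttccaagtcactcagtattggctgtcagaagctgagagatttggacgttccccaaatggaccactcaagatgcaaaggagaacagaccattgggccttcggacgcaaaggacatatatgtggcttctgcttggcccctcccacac
The following 4 motifs were searched on both strands in these windows, which were at hand for 8 of the 10 genes (those of Clec4n and Clec10a were not analysed here). They were the spaced palindrome TTCNNNNGAA of the IL-4-activated factor STAT6, the shorter STAT palindrome TTCNNNGAA, the AGGTCA hexamer of nuclear receptors and the GAGGAA core. Of 32851 RefSeq windows of that length 5.85%, 7.02%, 14% and 23.3% held them. The Mgl2 window held GAGGAA and none of the other 3 motifs, and AGGTCA was in none of the windows of the 8 genes. A match is a description of letters and not a binding site.

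Clec10a was the gene on which IL-4 and RSG both left the groups apart. In mice 1 to 3 its ratio was 0.291, 0.179 and 0.241 in vehicle controls and 0.489, 0.455 and 0.493 with RSG. With IL-4 the same mice were at 1.51, 2.08 and 2.40, and with IL-4 and RSG at 2.89, 3.33 and 4.08. The 4 groups did not overlap in Pparg+/- cells, and IL-4 plus RSG was highest. In mice 4 to 6 it was at 0.228, 0.222 and 0.192 in vehicle controls and at 0.406, 0.335 and 0.366 with RSG. With IL-4 those mice were at 2.18, 2.56 and 2.21, and with IL-4 and RSG at 3.23, 2.62 and 2.79. The groups stood in the same order and again without overlap, though 2.56 and 2.62 lay close. The RSG changes within each background were not called by limma, and the share of all probe sets with this order was not counted. IL-4 raised Clec10a 8.43-fold in vehicle cells of Pparg+/- mice and 10.8-fold in those of Pparg fl/- mice (log2 changes 3.08 ± 0.20 and 3.44 ± 0.20, SE), and 7.10- and 7.80-fold with RSG (all 4 with an adjusted p of 5.7e-08 or less).

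The mannose receptor Mrc1, an uptake receptor for mannosylated glycoproteins, changed by a small and even amount and stayed below the fold threshold. Its ratio in Pparg+/- vehicle cells was 0.863, 0.874 and 0.723 in controls and 1.12, 1.16 and 1.13 with IL-4. The Pparg fl/- values were 0.968, 0.852 and 0.877 in controls and 1.03, 1.14 and 1.24 with IL-4. All 3 IL-4 arrays lay above all 3 controls in each of the 4 comparisons, as for 21.9%, 18.1%, 22.3% and 20.6% of all probe sets (Pparg+/- vehicle, Pparg fl/- vehicle, Pparg+/- RSG, Pparg fl/- RSG). The log2 changes were 0.47, 0.34, 0.58 and 0.54 in that order (SE 0.10 each), with adjusted p of 0.0027, 0.026, 0.00053 and 0.00091. The Pparg+/- RSG change was 1.499-fold, just short of the threshold.

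Clec7a encodes Dectin-1, the β-glucan receptor that signals through a tyrosine motif in its own tail. It stood at 0.816, 0.668 and 0.749 in Pparg+/- vehicle controls and at 1.41, 1.21 and 1.10 with IL-4. With the Pparg fl/- genotype it stood at 0.610, 0.636 and 0.746 without and at 1.25, 0.982 and 1.29 with IL-4. The groups did not overlap in either genotype, as for 21.9% (Pparg+/-) and 18.1% (Pparg fl/-) of all probe sets, which lay higher with IL-4. The rises were 1.66-, 1.76-, 1.83- and 1.82-fold in the 4 comparisons, in the order given for Mrc1 (adjusted p = 0.013, 0.0055, 0.0044 and 0.0039). Under the methods' t-test 3 of these 4 calls were lost (adjusted p of 0.051, 0.079 and 0.18, with the Pparg+/- RSG call kept). Without mouse 1, 2 or 3 the Pparg+/- vehicle call was lost (adjusted p = 0.11, 0.14 and 0.074), and so was the Pparg+/- RSG call (0.062, 0.062 and 0.057).

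Clec4a2 encodes DCIR, a lectin with an inhibitory tyrosine motif. Its ratio was 0.531, 0.467 and 0.519 in Pparg+/- vehicle controls and 1.80, 1.63 and 1.58 with IL-4. Vehicle cells of mice 4 to 6 were at 0.390, 0.391 and 0.507 without and at 1.36, 1.61 and 1.75 with IL-4. The control arrays stayed below and the IL-4 arrays above the gene's median. The rises were 3.30-, 3.68-, 2.58- and 3.51-fold in the same order (log2 changes 1.72, 1.88, 1.37 and 1.81, SE 0.16; adjusted p of 1.1e-05 or less). A second probe set rose 4.34-, 5.83-, 3.81- and 5.42-fold. A probe set that the annotation assigns to both Clec4a2 and Clec4b1 was not used for either gene.

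Among the 8 windows, the 2 STAT palindromes were found only in those of Clec7a and Clec4a2, TTCTTCAGAA before Clec7a and TTCAAAGAA before Clec4a2. The windows are shown, build GRCm38.p6, with these palindromes and any GAGGAA core or its complement TTCCTC in capitals. Clec7a has another RefSeq start a few bases away, whose window holds the same matches:
Clec7a promoter, chr6:129472780-129473029, minus strand: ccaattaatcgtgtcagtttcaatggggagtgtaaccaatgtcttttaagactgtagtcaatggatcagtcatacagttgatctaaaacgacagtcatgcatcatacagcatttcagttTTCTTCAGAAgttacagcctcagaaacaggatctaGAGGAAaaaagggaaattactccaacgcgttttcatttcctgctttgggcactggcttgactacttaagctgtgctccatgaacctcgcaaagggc
Clec4a2 promoter, chr6:123122440-123122689, plus strand: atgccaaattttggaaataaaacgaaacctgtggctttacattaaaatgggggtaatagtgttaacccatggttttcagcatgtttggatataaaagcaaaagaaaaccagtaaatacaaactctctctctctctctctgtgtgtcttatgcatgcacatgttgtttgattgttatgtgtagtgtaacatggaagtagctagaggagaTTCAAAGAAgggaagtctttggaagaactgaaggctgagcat

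Clec4n, Clec4d and Clec4e fell. Clec4n encodes Dectin-2, a receptor for fungal mannans that signals through FcRγ. In Pparg+/- vehicle cells its ratio was 2.37, 2.00 and 2.60 without and 0.391, 0.243 and 0.162 with IL-4. The Pparg fl/- vehicle cells were at 3.30, 3.06 and 3.88 without and at 0.247, 0.371 and 0.364 with IL-4. All control arrays lay above and all IL-4 arrays below the gene's median. The falls were 9.28-, 10.5-, 13.2- and 8.86-fold in Pparg+/- vehicle, Pparg fl/- vehicle, Pparg+/- RSG and Pparg fl/- RSG cells (log2 SE 0.29; adjusted p of 5.5e-07 or less). A second probe set fell 10.6-, 12.6-, 14.7- and 9.49-fold.

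Clec4e encodes Mincle, the FcRγ-coupled receptor for mycobacterial cord factor. Its ratio in Pparg+/- vehicle cells was 3.06, 2.36 and 3.34 without and 0.212, 0.191 and 0.244 with IL-4. For the Pparg fl/- mice it was 6.12, 5.78 and 4.25 without and 0.166, 0.247 and 0.243 with IL-4. The IL-4 arrays of the genotypes overlapped, while all 3 Pparg fl/- vehicle controls exceeded the Pparg+/- vehicle controls, as 13.5% of all probe sets did. The falls were 13.5-, 24.7-, 11.5- and 17.2-fold in the same order of comparisons (log2 SE 0.39; adjusted p of 4.8e-06 or less). A second probe set fell by less, 5.70-, 8.46-, 6.20- and 8.41-fold. The window before Clec4e, the gene with the largest fall in Pparg+/- vehicle cells among the 10, is shown with the GAGGAA core and its complement TTCCTC in capitals (build GRCm38.p6), and it held none of the other 3 motifs:
Clec4e promoter, chr6:123289872-123290121, minus strand: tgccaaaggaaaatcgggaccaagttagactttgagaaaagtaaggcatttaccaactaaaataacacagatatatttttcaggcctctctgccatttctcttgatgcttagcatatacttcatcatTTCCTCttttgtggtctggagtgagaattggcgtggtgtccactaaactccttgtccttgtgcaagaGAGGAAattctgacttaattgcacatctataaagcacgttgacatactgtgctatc

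Clec4d encodes MCL, a lectin that associates with Mincle, and it moved least of the 3. Its ratio was 1.27, 1.30 and 1.22 in Pparg+/- vehicle controls and 0.932, 0.646 and 0.648 with IL-4. Mice 4 to 6 with vehicle had ratios of 1.37, 1.37 and 1.33 without and of 0.509, 0.693 and 0.738 with IL-4. The groups did not overlap in any of the 4 comparisons for Clec4n, Clec4d or Clec4e, as for 12.5%, 12%, 13.1% and 12.6% of all probe sets, which lay lower with IL-4. The falls were 1.73-, 2.13-, 2.24- and 2.02-fold in the same order (adjusted p = 0.0064, 0.00037, 0.00028 and 0.00083). Without the arrays of mouse 2 or of mouse 3 the Pparg+/- vehicle call was lost (adjusted p of 0.10 and 0.088), as were the vehicle calls of both genotypes under the methods' t-test (0.077 and 0.054).

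The genes that rose and those that fell were sorted by position in the Clec4 cluster of chromosome 6. RefSeq lists 9 protein-coding genes there in the order Clec4a1, Clec4a3, Clec4a4, Clec4b1, Clec4a2, Clec4b2, Clec4n, Clec4d and Clec4e, and 6 of them had a probe set of their own. The first 3 of these 6, Clec4a3, Clec4b1 and Clec4a2, rose in all 4 IL-4 comparisons, by 1.37 to 4.00 on the log2 scale. The last 3, Clec4n, Clec4d and Clec4e, fell in all 4, with log2 changes from -4.63 to -0.79. Clec4a1, Clec4a4 and Clec4b2 were not analysed here. The order was looked at after the changes of the 10 genes were known and was not tested.

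**Figure D2:**
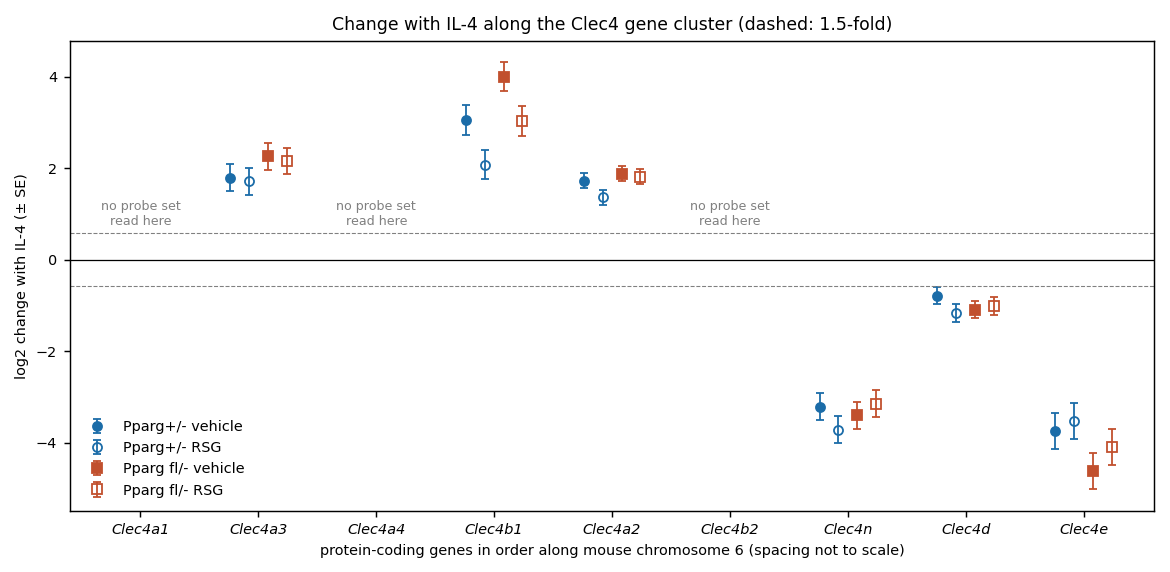
Log2 change with IL-4 (points, ± SE from limma) for the protein-coding genes of the Clec4 cluster in their order along chromosome 6, in Pparg+/- (blue circles) and Pparg fl/- cells (orange squares) with vehicle (filled) or RSG (open); dashed lines mark 1.5-fold. Clec4a3, Clec4b1 and Clec4a2 lie above 0 and Clec4n, Clec4d and Clec4e below 0 in all 4 backgrounds.

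The DC-SIGN homologues Cd209a and Cd209d varied widely among arrays. Cd209a, the dendritic cell member of the family, ranged from 0.565 to 1.54 on 23 of the 24 arrays and was at 0.101 in mouse 6 with IL-4 and vehicle. It was called in none of the comparisons, and its IL-4 interval in Pparg+/- vehicle cells ran from -1.31 to 1.43 on the log2 scale. Cd209d was at 0.251, 0.356 and 0.557 in Pparg+/- vehicle controls and at 0.806, 1.21 and 3.84 with IL-4. In Pparg fl/- vehicle cells it was at 1.97, 2.07 and 0.559 without and at 0.942, 3.00 and 0.538 with IL-4, which overlap. Its rise of 2.08 ± 0.67 on the log2 scale in Pparg+/- vehicle cells (adjusted p = 0.039) was lost under the methods' t-test (adjusted p = 0.19) and without any 1 of mice 1, 2 and 3 (adjusted p of 0.11, 0.12 and 0.19).

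**Figure D3:**
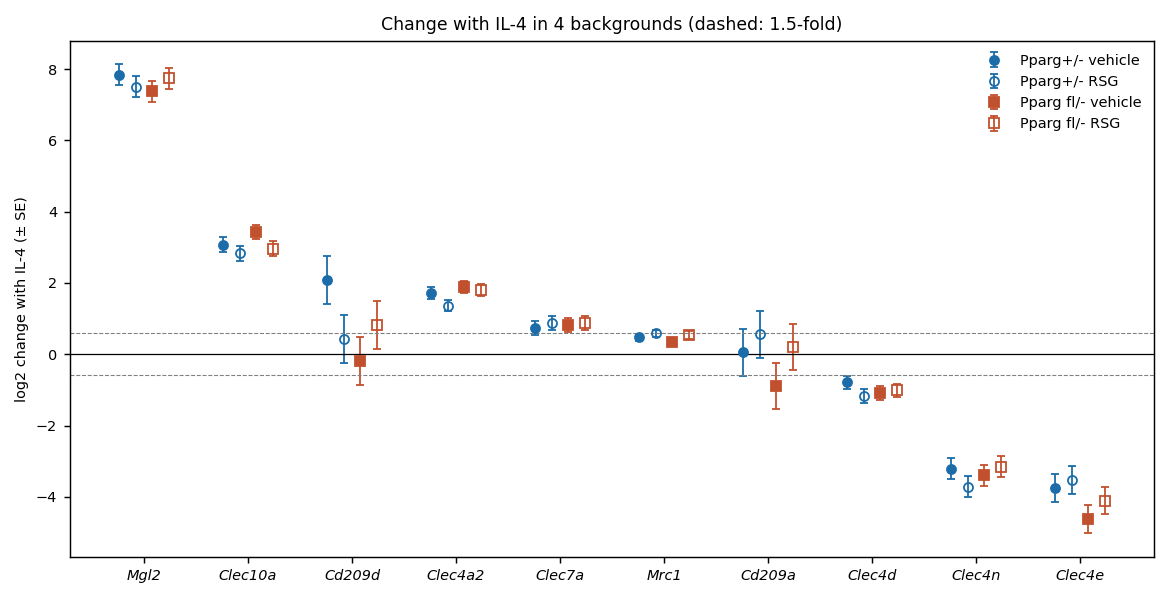
Log2 change with IL-4 (points, ± SE from limma) of the 10 genes, ordered by the change in Pparg+/- vehicle cells, in Pparg+/- (blue circles) and Pparg fl/- cells (orange squares) with vehicle (filled) or RSG (open); dashed lines mark 1.5-fold. For Mgl2 the 4 points lie between 7.38 and 7.84, for Clec4e between -4.63 and -3.52, and for Cd209d between -0.19 and 2.08.

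Marker genes of other cell types also changed under IL-4, in a comparison where 7.91% of all probe sets rose in Pparg+/- vehicle cells. Of 10 neutrophil genes 6 fell in Pparg+/- and 8 in Pparg fl/- vehicle cells, beside 5.47% and 6.6% of all probe sets. The mean log2 ratio of the 10 neutrophil genes lay between 1.03 and 1.43 on the Pparg+/- vehicle controls and between -2.64 and -2.45 with IL-4. S100a9 and S100a8, the calprotectin subunits, fell 312- and 21.8-fold in Pparg+/- vehicle cells, whereas Mpo, Elane, Cxcr2 and Mmp8 were not called there. In the same cells the monocyte genes Ccr2 and Plac8, the 2 of 4 listed that were tested, fell 3.29- and 4.10-fold. With RSG the IL-4 change of Plac8 in Pparg+/- cells was -0.54 on the log2 scale and not called. Of 9 dendritic cell genes Itgax, Batf3 and Zbtb46 rose 6.37-, 5.67- and 4.08-fold, Siglech fell 3.03-fold and 5 were not called. In Pparg+/- vehicle cells the median change of these 9 genes was -0.54 on the log2 scale. Their mean log2 ratio went there from a range of -0.81 to -0.23 to a range of -0.48 to 0.28. In Pparg fl/- vehicle cells 4 rose and none fell, with a median of 1.32. In the IL-4 comparisons with RSG 3 rose and none fell in each genotype, with medians of 0.63 (Pparg+/-) and 0.33 (Pparg fl/-). Rises made up 8.21%, 6.57% and 7.3% of all probe sets in these comparisons, in that order. Among 9 macrophage markers in Pparg+/- vehicle cells Itgam rose and Mertk, Fcgr1, Cd14 and Cx3cr1 fell. The log2 changes of Csf1r, Adgre1 and Cd68 were 0.16, 0.29 and 0.29 (not called). That of Lyz2 was -0.76 with an SE of 9.4, too imprecise to read, and was not called. Of 8 stromal genes the 3 collagens Col1a1, Col1a2 and Col3a1 fell. The other 5 were not called, with log2 changes from -0.28 (Dcn) to 0.42 (Lum). The part of these cells in the changes of the lectin genes was not tested, and in a bulk culture fewer cells of a type and less RNA per cell cannot be told apart.

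None of the 10 genes was called in any of the 4 RSG comparisons by limma, against 0.0115% of all probe sets in Pparg+/- controls, 0.173% in Pparg+/- IL-4, 0% in Pparg fl/- controls and 0.00923% in Pparg fl/- IL-4 cells. The methods' t-test called 0 as well. At an unadjusted p below 0.05 there were 2, 3, 1 and 0 of the 10 genes, beside 5.27%, 7.29%, 4.25% and 4.86% of all probe sets, and Clec10a was in the first 3 of these sets. Its RSG changes were 1.04, 0.80, 0.79 and 0.31 on the log2 scale (SE 0.20 each; 2.06-, 1.74-, 1.73- and 1.24-fold), with adjusted p of 0.19, 0.16, 0.70 and 1. All 3 RSG arrays lay above all 3 vehicle arrays in each of these comparisons, a pattern shown by 6.44%, 6.30%, 5.10% and 3.91% of all probe sets. Cd209d was at 1.28, 1.17 and 1.35 with RSG in the Pparg+/- controls, above the 0.251 to 0.557 of their vehicle cultures, a log2 change of 1.78 ± 0.67 (SE) that was not called (adjusted p = 0.81). In Pparg fl/- controls with RSG it was at 0.853, 0.340 and 0.673, a change of -1.18 ± 0.67 from vehicle cultures whose values overlapped these (adjusted p = 1), and in IL-4 cells its RSG changes were 0.12 and -0.17.

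The RSG response averaged over the 4 backgrounds was added after these values of Clec10a had been seen. Clec10a then had a log2 change of 0.73 ± 0.10 (SE), or 1.66-fold, with a 95% interval from 0.52 to 0.95 (limma, adjusted p = 0.002). It was the only gene of the 10 called, in a comparison in which 0.125% of all probe sets were called. It was higher with RSG in 12 of 12 cultures set against the vehicle culture of the same mouse. That count follows from the lack of overlap in the 4 comparisons and adds no support. The means of the 6 mice ran from 0.31 to 1.01. Without mouse 2 or mouse 3 the change was 0.71 and 0.74 and no longer passed (adjusted p = 0.06 and 0.069). Taken as Pparg fl/- minus Pparg+/-, its genotype difference was -0.37, with an interval from -0.79 to 0.05 (adjusted p = 1), so a difference between genotypes was not shown. For the other 9 genes the averaged change lay between -0.28 (Clec4n) and 0.21 (Cd209a).

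**Figure D4:**
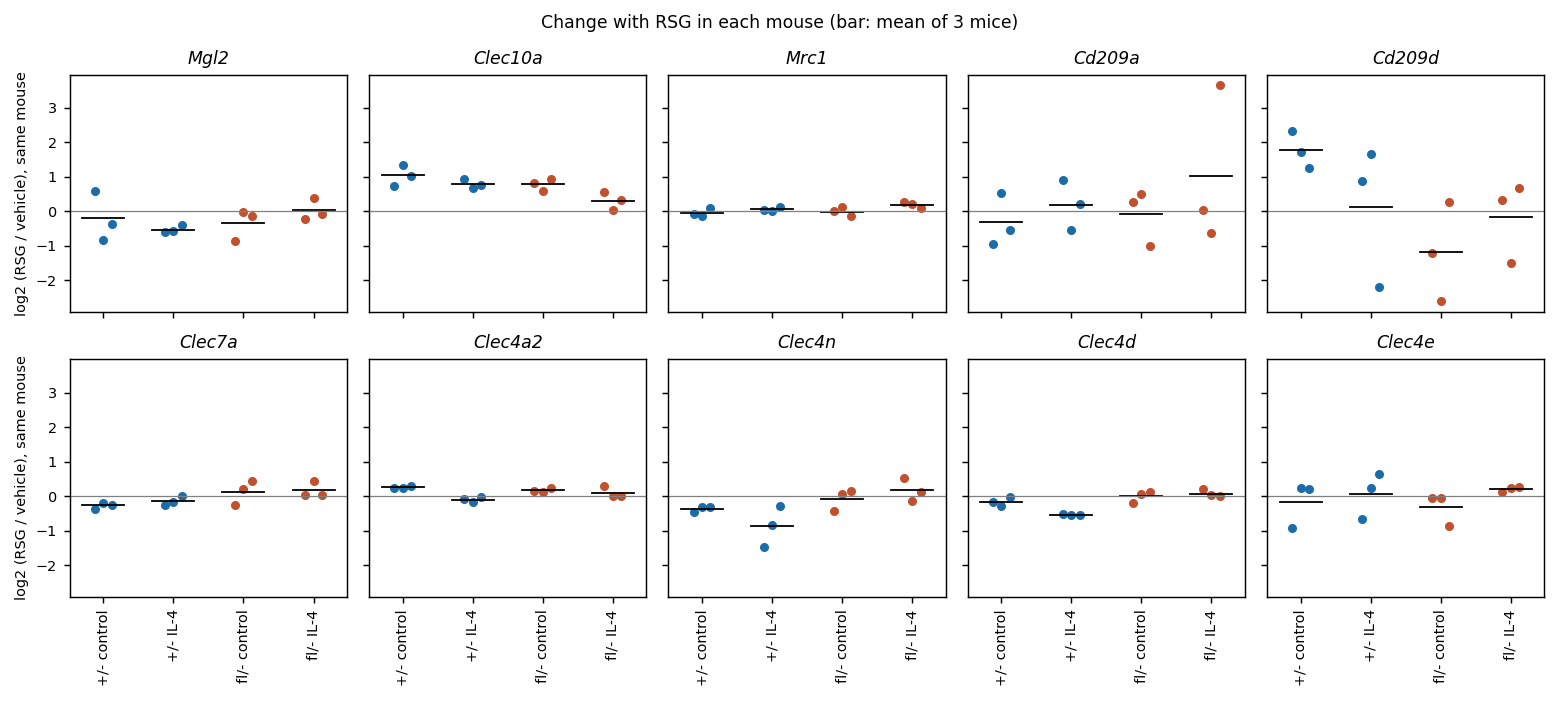
Log2 ratio of the RSG to the vehicle culture of the same mouse for the 10 genes, in control and IL-4 cultures of Pparg+/- (blue) and Pparg fl/- (orange) mice; points are mice and bars are means of 3. All 12 points of Clec10a lie above 0, whereas those of the other genes lie on both sides of 0.

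Mgl2, the neighbour of Clec10a, was not called with RSG. With IL-4 its Pparg+/- ratio was 3.01, 3.69 and 3.37 with vehicle and 1.97, 2.47 and 2.55 with RSG, without overlap as for 8.07% of all probe sets that lay lower, and the change of -0.53 had an interval from -1.14 to 0.08 (adjusted p = 0.77). In Pparg fl/- IL-4 cells the change was 0.03. Clec4n and Clec4d were at log2 changes of -0.87 and -0.54 with RSG in Pparg+/- IL-4 cells (adjusted p = 0.4 and 0.45) and of 0.18 and 0.07 in Pparg fl/- IL-4 cells. The change of the IL-4 response by RSG in Pparg+/- cells was called for none of the 10 genes by limma (0.00231% of all probe sets), nor did any have an unadjusted p below 0.05 there, beside 4.63% of all probe sets.

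The comparison of genotypes asks whether the lectin genes depend on Pparg in these cells. Pparg itself was measured by a probe set at 0.511 to 0.579 in Pparg+/- and 0.578 to 1.09 in Pparg fl/- vehicle controls, and at 1.46 to 2.02 and 1.86 to 3.16 with IL-4. The position of these probes and of the loxP sites was not compared here, and the values say nothing of the deletion. For Pparg fl/- LysCre mice the study reported near complete recombination by PCR. It also reported that RSG no longer induced Fabp4 in their macrophages. Between genotypes the limma fit called 0 of the 10 genes in vehicle controls (background 0%), RSG controls (0.00461%) and IL-4 vehicle cells (0.00231%), and 1 in IL-4 RSG cells (0.501%). The methods' t-test called 0 in all 4. At an unadjusted p below 0.05 there were 2, 1, 0 and 3 of the 10 genes, beside 9.11%, 9.29%, 9.14% and 11.4% of all probe sets.

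The gene called was Clec4n. With IL-4 and RSG its ratio was 0.141, 0.134 and 0.133 in Pparg+/- and 0.359, 0.339 and 0.396 in Pparg fl/- cells. The groups did not overlap, as for 17.1% of all probe sets in that direction. The difference was 1.42 ± 0.29 on the log2 scale, 2.68-fold higher in Pparg fl/- cells (adjusted p = 0.039). It was 1.43 with the second probe set (adjusted p = 0.11). The call was lost with only the 2 groups compared (adjusted p = 0.34), under the methods' t-test (0.14) and without any single mouse (0.051 to 0.24). In the other 3 cultures the difference was 0.56, 0.85 and 0.37 in vehicle controls, RSG controls and IL-4 vehicle cells, higher in Pparg fl/- cells each time and not called.

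In vehicle controls Cd209d differed by 1.84 ± 0.67 (SE) on the log2 scale, with an interval from 0.42 to 3.25, and was not called (adjusted p = 0.45), with Pparg+/- arrays at 0.251 to 0.557 and Pparg fl/- arrays at 0.559 to 2.07. Its difference was -1.12 in RSG controls (adjusted p = 0.62), and -0.43 and -0.72 in IL-4 vehicle and IL-4 RSG cells. Clec4e was 1.84-fold higher in Pparg fl/- vehicle controls, a log2 difference of 0.88 with an interval from 0.06 to 1.70, and was not called (adjusted p = 0.51). With IL-4 and vehicle its difference was 0.00. For Mgl2 the differences were 0.56, 0.42, 0.09 and 0.66 in vehicle controls, RSG controls, IL-4 vehicle and IL-4 RSG cells, with the last at 1.58-fold (adjusted p = 0.40). Across all probe sets the median difference between genotypes was 0.07 to 0.11 in favour of Pparg fl/- cells.

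The IL-4 response itself was compared between genotypes by its difference, averaged over vehicle and RSG. None of the 10 genes was called by limma (background 0.00923%), and none had an unadjusted p below 0.05, beside 5.21% of all probe sets. None was called with vehicle alone (background 0%) or with RSG alone (0.00461%) either. At an unadjusted p below 0.05 Cd209d alone of the 10 passed with vehicle, as did 4.83% of all probe sets, at -2.27 with an interval from -4.27 to -0.27 (adjusted p = 0.98), and its difference with RSG was 0.40. For Mgl2 the averaged difference, again as Pparg fl/- minus Pparg+/-, was -0.12, with an interval from -0.73 to 0.50. For Clec10a it was 0.25 (-0.18 to 0.67), for Mrc1 -0.09 (-0.31 to 0.13), for Clec4a2 0.30 (-0.04 to 0.65) and for Clec4n 0.19 (-0.42 to 0.81). The interval for Clec4e ran from -1.55 to 0.10 around -0.73. The intervals of Cd209a and Cd209d spanned more than those of the other 8 genes, -2.02 to 0.71 and -2.35 to 0.48.

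Other C-type lectin receptors were read from a list of 32 genes, of which 27 were tested. In Pparg+/- vehicle cells 4 rose and 1 fell with IL-4, and in Pparg fl/- vehicle cells 7 rose and 2 fell, beside 7.91% and 5.47% of all probe sets in the former and 8.21% and 6.6% in the latter. The list's median change was 0.33 and 0.62 on the log2 scale, beside 0.10 and 0.12 over all probe sets. Olr1, the receptor for oxidized LDL, rose from 0.01 to 0.133 in Pparg+/- vehicle controls to 1.99 to 2.53 with IL-4. Its fitted log2 change was 5.43 ± 0.97 (SE), whose size depends on the control array at 0.01. Clec4b1 rose 8.31-fold and Clec4a3 3.48-fold, and Cd72, an inhibitory receptor best known from B cells, rose 1.65-fold. Clec2i, which encodes a ligand of natural killer cell receptors, fell 3.08-fold. With RSG the fall of Clec2i in Pparg+/- cells was 1.41-fold and not called (adjusted p = 0.10). None of the 27 was called with RSG or between genotypes, where at most 0.173% and 0.501% of all probe sets were called in any comparison.

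Genes that carry the signals of these receptors moved in both directions. Of 25 listed, 20 were tested, and 5 rose and 4 fell with IL-4 in Pparg+/- vehicle cells, with a median of -0.02, beside rises in 7.91% and falls in 5.47% of all probe sets. The kinase gene Src rose 3.10-fold, the NF-κB subunit genes Rel and Relb 2.97- and 1.65-fold, Malt1, the protease of the CARD9 complex, 2.15-fold, and the kinase gene Prkcd 1.61-fold. Plcg2, a phospholipase downstream of Syk, fell 1.63-fold, the phosphatase gene Inpp5d 1.60-fold, and the NFAT genes Nfatc2 and Nfatc1 1.60- and 1.57-fold. Nfatc1 lay outside the rule for named genes and was added after its value was seen. The Pparg fl/- vehicle cells showed 5 rises and 2 falls, beside 8.21% and 6.6%. None was called with RSG, where at most 0.173% of all probe sets were called in any comparison. Of the 20 genes 1, Src, was higher in Pparg fl/- IL-4 RSG cells, 1.76-fold (limma, adjusted p = 0.022), beside 0.501% of all probe sets called there. How far that call depends on single arrays or mice is not given here.

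For each gene the most similar pattern over the 8 group means was sought, by the root mean square difference of centred log2 means. Nearest to Mgl2 were Rnase2a, Retnla and Arg1, at 0.30, 0.35 and 0.36 against a range of 8.16 in Mgl2 itself. Nearest to Clec10a was the phospholipid transfer protein gene Pltp, at 0.27 against a range of 3.99 (Galnt15 and Hilpda followed at 0.35 each). For Clec4n they were Knstrn, Ccl4 and Cdk1, at 0.22 to 0.23, and for Clec4e Ccne2, Prim1 and Clspn, at 0.18 to 0.20. Nearest to Clec4d were Cklf, Tpx2 and Rcan3, and to Clec4a2 Cytip, 9130008F23Rik and Sgk1. Clec7a was nearest to Acsl4, Sgpp1 and Dse, and Mrc1 to Mob4, Pdlim5 and Prr14, at 0.04 to 0.06. For Cd209a they were Wdtc1, Mapk8ip2 and Gfra1, and for Cd209d Gpat3, Cyb561 and Tagln3, up to 0.27 apart.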

How the data were processed

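RNA of 24 cultures was hybridized to Affymetrix mouse expression arrays. The deposited values are ratios: per the study's methods the authors applied GC-RMA in GeneSpring, divided each array by its 50th percentile and each probe set by its median over the arrays, and named a further division by vehicle, which the deposited ratios do not carry. GCOS is named in the submitters' processing notes. The number of arrays limits the precision. The 64 control probe sets were left out, and 1688 that did not reach their array's median ratio on at least 3 arrays were removed, leaving 43349. The log2 ratios were fitted with limma 3.58.1 in R 4.3.3 (1 mean per group, eBayes with trend), with Benjamini-Hochberg adjustment within each of 18 comparisons, 2 of them added after seeing the data. Comparisons that share a group share its arrays. limma replaced the methods' t-test because n = 3, and kept its threshold of 0.05 and 1.5-fold. The study's own lists of IL-4-regulated genes in these mice used more than 2-fold, which was an alternative here.

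Symbols came from the platform annotation (34945 probe sets with 1 symbol, 932 with several, 9160 with none), updated by gene identifier for 34741. The probe set with the smallest within-group SD stood for a gene. Besides the 10 genes, up to 8 genes a list with the largest change called in Pparg+/- vehicle cells were named, and the 3 nearest in pattern. The genes and lists were chosen with earlier results of these data known. Same-numbered cultures came from the same mouse, and their deviations from the group means correlated with a median of 0.01 (36 pairs, -0.06 to 0.04), beside -0.01 between mice. The p-values rest on the spread within groups of 3 mice, pooled over the 8 groups and moderated by eBayes. The main fit treated the 4 cultures of a mouse as independent. In simulated data 100 probe sets were changed 2-fold and 100 were changed 4-fold among 43349. For the IL-4 response of Pparg+/- vehicle cells 29% and 55% of them were recovered. For its difference between genotypes with vehicle 14% and 43% were recovered. In the data that IL-4 response called 13.4% of all probe sets, so the shares for IL-4 cannot be carried over to it. Alternatives covered scaling, filter, floor, trend, samples fitted, the mouse, the threshold and each array left out. Promoter windows and gene order came from RefSeq, GRCm38.p6.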

Additional observations from a re-analysis of the deposited data

How the results depend on the processing

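No call reversed its direction under any alternative. The IL-4 count in Pparg+/- vehicle cells, 8 of 10, was 5 under the methods' t-test and ran from 5 to 8 when single arrays or mice were left out. It was lowest without mouse 2 or mouse 3, where Mgl2, Clec10a, Clec4n, Clec4e and Clec4a2 stayed. The other IL-4 counts, 7 each, ran from 6 to 8 in such runs and from 5 to 8 under the other alternatives. The single call between genotypes, Clec4n in IL-4 RSG cells, became 0 with only the groups compared, under the methods' t-test and in every run without an array or a mouse (0 to 0). The averaged RSG count of 1 became 0 at a 2-fold threshold and ran from 0 to 1 in runs without an array or a mouse. With the mouse as replicate block the counts were 8, 7, 7 and 7 for IL-4 and 1 for the averaged RSG response (Clec10a, adjusted p = 0.0059), and no call among the 10 genes changed. The cause of the lost calls was not tested, other than that runs without an array or a mouse hold fewer samples. Ratios near 0.01 limit the folds of Mgl2 and Olr1.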
